A study of Homo sapiens with 8 samples.

Results

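SYNE1, FOLR1, TNNC1, ZNF595 and ITPR1 are 5 of the 57905 genes of a deposited expression table, and they were chosen because their transcripts stood much higher in the prostate cancer line DU145 after TRIB1 had been added. The 8 RNA-seq libraries of the study form 4 groups of 2: DU145 with an empty lentivirus (control), DU145 with a lentivirus that carries TRIB1, PC3 with the empty lentivirus and PC3 with the TRIB1 lentivirus. Both lines are established human lines from prostate cancer metastases, DU145 from the brain and PC3 from bone. The promoter that drives TRIB1, the time after infection, and whether the infected cells were pools or clones are not stated in the labels. The DU145 libraries chose the 5 genes, so their DU145 values are given as a description with no test, and tests of these genes were made on the PC3 contrast. That contrast was fitted with all 8 libraries, so the DU145 libraries contribute to its estimate of spread, and the value from the 4 PC3 libraries alone is given beside it. All values are TPM (a gene's share of all transcripts in a library, corrected for gene length and scaled so that each library sums to 1000000). The gene lengths used are not stated, so comparisons of level between genes are approximate.

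The 5 genes belong to unrelated systems. SYNE1 encodes nesprin-1, a giant protein of the outer nuclear membrane that binds SUN proteins across the perinuclear space and so ties the nuclear lamina to the actin cytoskeleton. FOLR1 encodes folate receptor alpha, which is anchored in the cell surface by a lipid and takes up folate by endocytosis. TNNC1 encodes the calcium-binding troponin of slow skeletal and heart muscle, which with troponin I and troponin T switches contraction on the actin filament. ZNF595 encodes a zinc finger protein from a cluster of such genes at the tip of the short arm of chromosome 4. ITPR1 encodes the type 1 inositol trisphosphate receptor, a channel that releases calcium from the endoplasmic reticulum when phospholipase C has made its ligand. TRIB1 itself encodes a pseudokinase that docks onto the ubiquitin ligase COP1 and offers it substrates such as C/EBP proteins.

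Promoter sequences of the genes were read so that the start regions can be set beside the levels. RefSeq (GRCh38.p14) gave entries of 300 bases, 250 before and 50 after a start, for 3 of the 5 genes: 4 for SYNE1, 1 for ZNF595 and 1 for ITPR1. FOLR1 and TNNC1 are named only. The ITPR1 region is chr3:4493098-4493397 (plus strand), the ZNF595 region is chr4:53071-53370 (plus strand), and the SYNE1 regions shown, its first and second entries, are chr6:152637313-152637612 and chr6:152636841-152637140 (minus strand). They are written 5′ to 3′, and capitals mark every match to the motifs named after them.
ITPR1: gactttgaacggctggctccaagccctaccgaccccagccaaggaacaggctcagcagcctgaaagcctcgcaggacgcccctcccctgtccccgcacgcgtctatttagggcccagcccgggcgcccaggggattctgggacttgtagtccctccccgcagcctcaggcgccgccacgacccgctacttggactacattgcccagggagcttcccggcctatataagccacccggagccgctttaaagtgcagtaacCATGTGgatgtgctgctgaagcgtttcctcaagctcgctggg
ZNF595: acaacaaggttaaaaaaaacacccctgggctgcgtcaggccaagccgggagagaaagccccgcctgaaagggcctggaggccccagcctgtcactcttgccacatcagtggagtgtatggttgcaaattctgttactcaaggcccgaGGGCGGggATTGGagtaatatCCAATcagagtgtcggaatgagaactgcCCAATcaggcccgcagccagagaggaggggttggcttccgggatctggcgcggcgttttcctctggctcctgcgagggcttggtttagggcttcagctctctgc
SYNE1 first entry: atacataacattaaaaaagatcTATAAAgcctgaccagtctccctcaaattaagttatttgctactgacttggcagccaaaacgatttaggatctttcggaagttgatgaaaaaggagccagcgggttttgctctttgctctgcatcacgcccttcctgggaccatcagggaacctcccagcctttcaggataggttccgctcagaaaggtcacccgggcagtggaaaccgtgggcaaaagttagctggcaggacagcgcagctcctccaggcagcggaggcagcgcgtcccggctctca
SYNE1 second entry: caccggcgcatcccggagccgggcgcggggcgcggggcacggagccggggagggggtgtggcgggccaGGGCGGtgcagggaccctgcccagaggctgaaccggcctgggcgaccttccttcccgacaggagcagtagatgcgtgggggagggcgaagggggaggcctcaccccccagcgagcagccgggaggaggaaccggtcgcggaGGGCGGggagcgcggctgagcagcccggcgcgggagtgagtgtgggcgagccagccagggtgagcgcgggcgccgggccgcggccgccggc

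Motifs were searched on both strands, each by 1 set of letters in which N is any base. They were C/EBP (TTGCNNAA), NF-kB (GGGA, any base, then TTTCC), AP-1 (TGANTCA), E-box (CANNTG), TATA box (TATAAA) and GC box (GGGCGG). The CCAAT box was searched by the letters in its name. Other forms of these motifs were not searched, so an entry without a match may still hold one. No motif contains another. None of the 6 entries held the C/EBP, NF-kB or AP-1 letters, which 10.5%, 0.56% and 7.73% of 34796 distinct RefSeq promoters of this length hold. ITPR1 held 1 E-box match, found in 68.7% of promoters. ZNF595 held 3 CCAAT matches and 1 GC box match, found in 34.6% and 44.9%. The first SYNE1 entry held 1 TATA box match (11.6% of promoters), far upstream of the start, and the second held 2 GC box matches. The 2 SYNE1 entries also differ in base composition, with 51.7% G and C and 12 CG pairs in the first and 79% and 37 in the second, against medians of 58.7% and 14 over all such promoters. The table gives 1 value for each gene, so which start the SYNE1 transcripts used was not measured.

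TRIB1 was read first, as a check of the labels. DU145 control libraries had 10.1 and 7.94 TPM of it and DU145 TRIB1 libraries 69.4 and 62.3 TPM. PC3 control libraries had 45.1 and 50.8 TPM and PC3 TRIB1 libraries 241 and 245 TPM, and the PC3 controls lay above the DU145 controls and below DU145 with TRIB1. The 5 epithelial markers (EPCAM, KRT8, KRT18, KRT19 and CDH1) summed to 1389 to 1428 TPM in the DU145 controls, 1279 to 1396 TPM in DU145 with TRIB1, 1453 to 1506 TPM in the PC3 controls and 2770.2 to 2815 TPM in PC3 with TRIB1, so the sum moved with TRIB1 in PC3. Of 7 prostate luminal markers 2 stayed under 1 TPM in all libraries, KLK3 among them. Their sum was 13.6 to 14.2 TPM and 7.61 to 8.98 TPM in DU145 without and with TRIB1, and 62 to 66.1 TPM and 34.2 to 37.5 TPM in PC3. The part of these marker shifts in the results was not tested. Among the DU145 libraries the second TRIB1 library stood apart on the second principal component (-61.7 against 21.5 to 24.9 for the other 3), so DU145 values are also given without it.

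SYNE1 (ENSG00000131018, listed on chromosome 6 from 152442819 to 152958534, minus strand) had 10.2 and 12 TPM in the DU145 control libraries and 60.4 and 58 TPM in those with TRIB1. The PC3 values were 4.96 and 4.83 TPM without TRIB1 and 5.97 and 4.03 TPM with it. The DU145 libraries with TRIB1 stood well above all others, and the PC3 groups overlapped. The DU145 means were 11.1 ± 1.27 and 59.2 ± 1.74 TPM (SD, n = 2 each), a ratio of 5.35 and a log2 change of 2.32 on log2(TPM + 1), 2.35 without the second TRIB1 library. In PC3 the change did not pass the test (log2 change 0.01, SE 0.17, limma adjusted p = 1, and 0.986 in the PC3 libraries alone). The GENCODE 29 model of SYNE1 has 40 transcripts, of which the longest spans 27748 bases in 146 exons and the shortest 414 bases. In that model, on GRCh38, the gene runs from 152121684 to 152637801, which differs from the listed interval. The listed intervals of the other genes differ from GRCh38 as well, so none can be set beside the promoter positions.

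FOLR1 (ENSG00000110195, chromosome 11, 71900602 to 71907344, plus strand) had 2.05 and 2.96 TPM in the DU145 control libraries and 14.5 and 14.1 TPM in those with TRIB1. The 4 PC3 values were lower still, 0.27 and 0.167 TPM without TRIB1 and 0.847 and 0.873 TPM with it. Within each line both TRIB1 libraries lay above both controls, and every DU145 value lay above every PC3 value. The DU145 means were 2.5 ± 0.641 and 14.3 ± 0.344 TPM (SD, n = 2 each), a ratio of 5.71 and a log2 change of 2.14, 2.16 without the second TRIB1 library. In PC3 the means were 0.219 ± 0.0728 and 0.86 ± 0.0186 TPM, a log2 change of 0.61, which was 1.61 and 0.92 with a pseudocount of 0.1 and 0.5 TPM in place of 1. FOLR1 passed the filter on low values only through DU145, so its PC3 change is given with no test.

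TNNC1 (ENSG00000114854, chromosome 3, 52485118 to 52488086, minus strand) was the most abundant of the 5 in DU145, with 44.8 and 43.4 TPM in the DU145 control libraries and 189 and 166 TPM in those with TRIB1. PC3 had almost none, 0.414 and 0.258 TPM without TRIB1 and 0.762 and 0.974 TPM with it. As with FOLR1, TRIB1 libraries lay above controls within each line, and all DU145 values lay above all PC3 values. The DU145 means were 44.1 ± 1.01 and 178 ± 16.8 TPM (SD, n = 2 each), a ratio of 4.02 and a log2 change of 1.98, 2.08 without the second TRIB1 library. In PC3 the means were 0.336 ± 0.111 and 0.868 ± 0.149 TPM, a log2 change of 0.48, which was 1.17 and 0.71 with a pseudocount of 0.1 and 0.5 TPM. As for FOLR1, the filter was passed only through DU145, and no test is given for PC3.

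ZNF595 (listed as ENSG00000197701, chromosome 4, 53179 to 88099, plus strand) had 1.53 and 2.89 TPM in the DU145 control libraries and 19.3 and 19.4 TPM in those with TRIB1. The PC3 values were 4.93 and 3.8 TPM without TRIB1 and 3.22 and 5.01 TPM with it. The PC3 groups overlapped and lay between the DU145 control and the DU145 TRIB1 libraries. The DU145 means were 2.21 ± 0.96 and 19.3 ± 0.113 TPM (SD, n = 2 each), a ratio of 8.75 and a log2 change of 2.70, 2.69 without the second TRIB1 library. In PC3 the change did not pass (log2 change -0.08, SE 0.27, limma adjusted p = 0.906, and 0.846 in the PC3 libraries alone). Zinc finger genes of this kind have many near copies, so reads of one copy can be counted for another, and the values of ZNF595 and of ZNF718 beside it are uncertain.

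ITPR1 (ENSG00000150995, chromosome 3, 4535032 to 4889524, plus strand) had 5.68 and 5.33 TPM in the DU145 control libraries and 15.9 and 17.4 TPM in those with TRIB1. The PC3 values were 18.8 and 19.9 TPM without TRIB1 and 7.94 and 8.25 TPM with it. Both TRIB1 libraries thus lay above both controls in DU145 and below both controls in PC3. The DU145 means were 5.51 ± 0.251 and 16.7 ± 1.05 TPM (SD, n = 2 each), a ratio of 3.03 and a log2 change of 1.44, 1.38 without the second TRIB1 library. The PC3 mean of ITPR1 fell from 19.3 ± 0.764 to 8.1 ± 0.22 TPM (SD, n = 2 each), and the log2 change was -1.16 (SE 0.09, limma adjusted p = 0.00205, and 0.0219 in the PC3 libraries alone). Its adjusted p stayed below 0.05 under each of 18 alternatives, with 0.0323 as the highest.

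**Figure D1:**
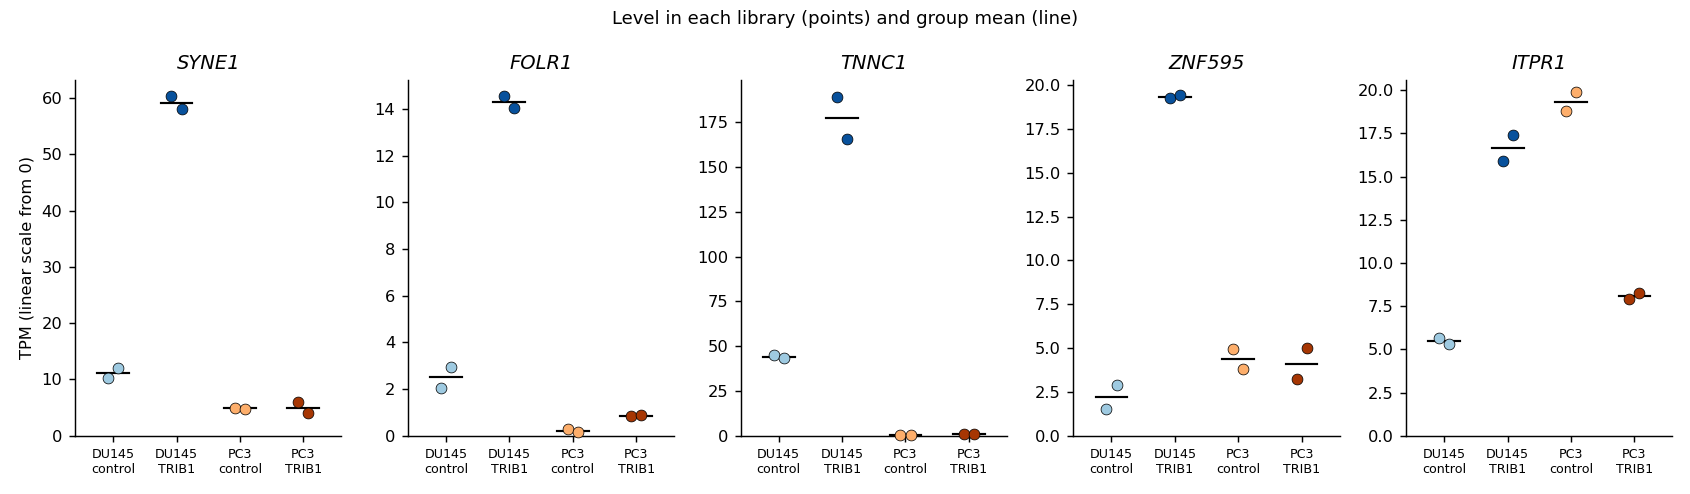
TPM of each of the 5 genes in each library, on a linear vertical axis that starts at 0 and is scaled for each gene, with 1 point for each library and a line at the mean of each group of 2. The DU145 TRIB1 libraries are the highest for SYNE1, FOLR1, TNNC1 and ZNF595, whereas ITPR1 is highest in the PC3 controls at 18.8 and 19.9 TPM.

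Ordered by level, the groups fell into 3 patterns. For SYNE1, FOLR1 and TNNC1 the order was DU145 TRIB1, DU145 control, PC3 TRIB1 and PC3 control. No neighbouring groups in that order overlapped for FOLR1 and TNNC1, and for SYNE1 the PC3 groups did. The step from the DU145 controls to the PC3 TRIB1 libraries was 50.8 times for TNNC1, 2.91 times for FOLR1 and 2.21 times for SYNE1. For ZNF595 the order was DU145 TRIB1, PC3 control, PC3 TRIB1 and DU145 control, with the PC3 groups overlapping. For ITPR1 it was PC3 control, DU145 TRIB1, PC3 TRIB1 and DU145 control, with no overlap between neighbours and only 1.16 times between the first and second. These orders are descriptions, since the DU145 libraries chose the genes.

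All 5 genes passed the filter on low values (a mean of at least 1 TPM in a group), but FOLR1 and TNNC1 passed it only through DU145 and did not reach 1 TPM in any PC3 library. Of the other 3 genes, 1 had a limma adjusted p below 0.05 in PC3, ITPR1, which was lower. Over all 25982 genes tested this held for 17% (7.67% higher and 9.33% lower). ITPR1 also passed the further condition of a log2 change over 1 in size, as did 5.2% of all genes (2.52% higher and 2.67% lower). FOLR1 and TNNC1 had both TRIB1 libraries above both PC3 controls, as did 24.5% of all genes, and ITPR1 had both below, as did 29.8%. ITPR1 alone of the 3 passed as well when any 1 of the 8 libraries was left out. By size of the DU145 change, ZNF595 ranked 82, SYNE1 140, FOLR1 188, TNNC1 234 and ITPR1 545 among the genes tested. Of the 12292 tested genes that the table lists as protein-coding, 4, 6, 9, 11 and 39 had a larger change. Each of these counts holds TRIB1 itself, at a log2 change of 2.75. The table lists ZNF595 itself as a processed transcript, and LMNA and GGH as well. Counts of genes listed as protein-coding therefore leave out some genes that encode proteins. Over all genes tested, 1.12% passed the test with a log2 change over 1 in size in DU145 (0.312% higher and 0.804% lower). That split of 81 higher and 209 lower turned when a DU145 TRIB1 library was left out, to 405 and 179 (replicate 1) or 276 and 178 (replicate 2), and was 65 and 371 or 68 and 442 with a DU145 control left out. The DU145 TRIB1 libraries lay wholly above the controls for 17.6% and wholly below for 29.7%. For the 5 genes these DU145 counts were fixed by the choice.

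**Figure D2:**
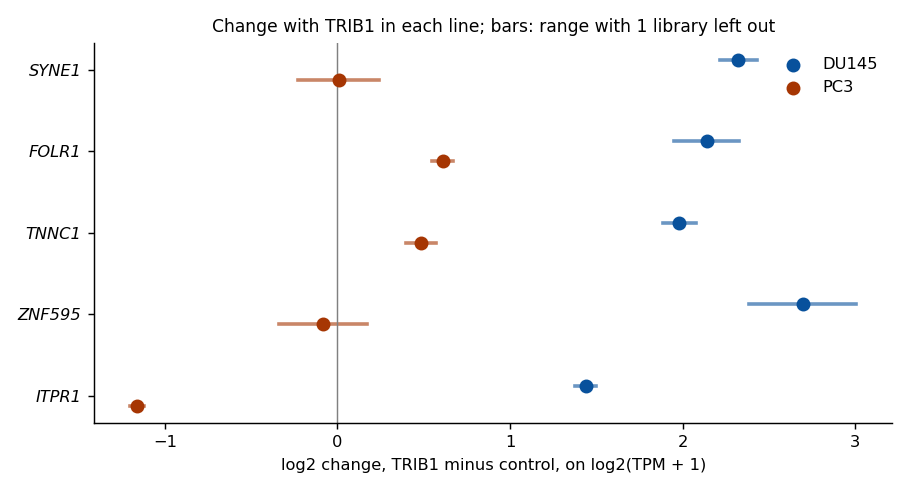
The log2 change with TRIB1 on log2(TPM + 1) in DU145 (blue) and PC3 (brown) for each gene, with a bar from the lowest to the highest value when 1 of the 8 libraries is left out. The points of ITPR1 lie far on opposite sides of 0, at 1.44 in DU145 and -1.16 in PC3, and the PC3 bars of SYNE1 and ZNF595 cross 0.

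ITPR1 was then set beside other genes with a large DU145 change. Of 94 genes listed as protein-coding with a log2 change over 1 in DU145, 77 had a PC3 change between -1 and 1, 13 had one over 1 and 4 had one under -1. The last 4 were ITPR1, CRABP1 and 2 clone-named genes, AL160286.1 and AC092964.1, named after their values were seen. Over all 1105 tested genes above 1 in DU145, 107 were under -1 and 143 over 1 in PC3. TRIB1 itself, which the vector carries, is counted among the 94, the 13, the 1105 and the 143. The share of all tested genes with such PC3 changes was not counted. The comparisons in the 2 lines share no control library, and the difference between them was not tested for the 5 genes.

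Relatives of each gene were then read from lists of 118 genes related to them by function, family or place, of which 109 were tested. In DU145 4 of the 109 passed at a limma adjusted p below 0.05, 2 higher and 2 lower, where 2.72% of all genes did (0.712% higher and 2.01% lower). In PC3 35 passed, 14 higher and 21 lower, against 7.67% and 9.33% of all genes. After median-of-ratios scaling the PC3 split was 22 higher and 21 lower, with 4, 5, 6, 2 and 5 higher in the lists in the order given here and 6, 3, 4, 1 and 7 lower. Single libraries moved these counts: in DU145 the 4 became 0 or 1 without any 1 DU145 library or without either PC3 TRIB1 library, and 7 without either PC3 control, and in PC3 the 35 became 11 when the first PC3 TRIB1 library was left out and 14 when the second was.

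Of 20 genes of the nuclear envelope beside SYNE1, 1 rose and 0 fell in DU145, with a median log2 change of -0.07 against -0.04 over all genes. That gene was LMNA, which encodes the A-type lamins, at 354 and 365 TPM without TRIB1 and 470.3 and 443 TPM with it (log2 change 0.35, limma adjusted p = 0.0457, over 0.05 without 6 of the 8 libraries and up to 0.187). The other nesprin genes did not pass in either line: SYNE2, also a giant nesprin, had log2 changes of -0.16 in DU145 and -0.24 in PC3, SYNE3 0.19 and -0.15, and SYNE4 -0.24 and -0.06. SYNE2 was at 24.6 to 33.5 TPM in DU145, above SYNE1 in the controls and below it with TRIB1. In PC3, where SYNE1 did not pass, 1 gene of the list rose and 6 fell (median -0.11 against -0.01 over all genes). SUN1, a partner of nesprins in the inner membrane, fell from a mean of 169.5 ± 3.6 TPM to 117 ± 7.83 TPM (SD, n = 2 each), a log2 change of -0.54 (limma adjusted p = 0.00689). SUN2, named after its values were seen, was at 62.3 and 82.5 TPM without TRIB1 and 34.4 and 35 TPM with it (log2 change -1.03, limma adjusted p = 0.00871, up to 0.0643 with a library left out). LMNA and TOR1AIP2, which anchors the ATPase torsin, fell too (log2 changes -0.40 and -0.59, limma adjusted p = 0.0094 and 0.0071, the former up to 0.06 with a library left out), and the DNA-bridging gene BANF1 rose (0.29, limma adjusted p = 0.0253, over 0.05 without 5 libraries). The changes of LMNA and SUN1 differed between the lines (DU145 minus PC3 0.74 and 0.72, limma adjusted p = 0.00824 and 0.0139).

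Of 22 tested folate genes beside FOLR1, 1 rose and 1 fell in DU145 (median -0.11 against -0.04). MTHFD2, a mitochondrial folate enzyme, was at 108 and 116 TPM without TRIB1 and 169.8 and 168 TPM with it (log2 change 0.59, limma adjusted p = 0.038), and GGH, which trims stored folate polyglutamates, was at 135 and 137 TPM and at 95.6 and 86.7 TPM (-0.57, limma adjusted p = 0.0174). These calls ended without 6 and 4 of the 8 libraries (up to 0.175 and 0.0726). The paralogs of FOLR1 were low and not tested: FOLR2 was listed at 0 in 6 libraries with 0.135 TPM as its highest value, and FOLR3 was at 0.15 to 0.692 TPM. Another route of folate into cells is the reduced folate carrier, whose gene SLC19A1 was named after its values were seen. SLC19A1 was at 64.3 and 62.6 TPM in the DU145 control libraries and 45.2 and 45.9 TPM with TRIB1. It did not pass (log2 change -0.47, limma adjusted p = 0.202). In PC3 4 folate genes rose and 3 fell (median -0.13 against -0.01). MTHFD2 and MTHFD1L, both of the mitochondrial branch, rose (0.60 and 0.55, limma adjusted p = 0.0111 and 0.0176, up to 0.0736 and 0.0874 with a library left out). TYMS, which makes thymidylate, fell from a mean of 165 ± 19.6 TPM to 93.4 ± 3.24 TPM (SD, n = 2 each), a log2 change of -0.81 (limma adjusted p = 0.00423). The cytosolic gene MTHFD1 fell from a mean of 195 ± 0.497 TPM to 125 ± 2.85 TPM (SD, n = 2 each), a log2 change of -0.63 (limma adjusted p = 0.00561).

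None of 20 tested genes of the thin filament beside TNNC1 passed limma in DU145 (median -0.08 against -0.04). At an unadjusted limma p below 0.05, 3 were higher and 4 lower. After median-of-ratios scaling 1 rose. When values were scaled to the total of genes listed as protein-coding, which left 17 tested, 2 rose and 1 fell. TNNC2, the fast-muscle paralog of TNNC1, was at 3.14 and 3.05 TPM in the DU145 control libraries and 1.26 and 0.785 TPM with TRIB1, the direction opposite to TNNC1, and did not pass (log2 change -1.03, limma adjusted p = 0.0908). Of the partners of troponin C, the slow troponin T gene TNNT1 was at 159.5 to 182 TPM in the 4 DU145 libraries, about as high as TNNC1 with TRIB1, whereas troponin I genes, named after their values were seen, were low, with TNNI3 at 2.49 to 6.89 TPM and TNNI1 and TNNI2 under 1 TPM in DU145. In PC3 5 genes of the list rose and 4 fell (median 0.17 against -0.01). Of these ACTG1, a cytoplasmic actin gene, and the tropomyosin gene TPM1 rose (0.54 and 0.73, limma adjusted p = 0.00261 and 0.00264). The other tropomyosin genes, named after their values were seen, went both ways. TPM2 and TPM3 fell (-0.90 and -0.37, limma adjusted p = 0.00703 and 0.00838). TPM4 rose (0.35, limma adjusted p = 0.0117). For TPM3 and TPM4 the limma adjusted p reached 0.0554 and 0.0627 under other settings. TNNT1 fell (-0.58, limma adjusted p = 0.00683, up to 0.0502 with a library left out), from a mean of 403 ± 1.51 TPM to 270.1 ± 0.844 TPM (SD, n = 2 each). Of 16 markers of striated muscle, read to see whether muscle genes stood high where TNNC1 did, 8 stayed under 1 TPM in every library, the myosin genes MYH7, MYH6 and MYH2 among them, and the 16 summed to 31.8 to 35.5 TPM in the DU145 controls and 27.4 to 31.8 TPM with TRIB1. In bulk RNA, fewer cells of a type and less RNA in each cell cannot be told apart.

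Among 16 tested genes listed with ZNF595, none passed limma in DU145 (median -0.02 against -0.04, with 0 higher and 1 lower at an unadjusted p below 0.05). They include its relatives in the cluster on chromosome 4, other zinc finger genes and TRIM28, the corepressor that zinc finger proteins with a KRAB domain recruit. ZNF718, ZNF141 and ZNF721 had DU145 log2 changes of -0.18, -0.07 and 0.36 (limma adjusted p = 0.807, 0.873 and 0.291), and ZNF732 was not tested, with 0.112 TPM as its highest value. In PC3 2 genes rose and 1 fell (median 0.08 against -0.01). ZNF718 went from 0.278 and 0.212 TPM to 1.69 and 1.77 TPM (log2 change 1.13, limma adjusted p = 0.0385), a call that ended without 6 of the libraries, up to 0.156. The heterochromatin protein genes CBX5 and CBX1 had log2 changes of 0.54 and -0.41 (limma adjusted p = 0.0274 and 0.0113, up to 0.107 and 0.0635 with a library left out).

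Of 31 tested genes of the calcium store beside ITPR1, 0 rose and 1 fell in DU145 (median -0.10 against -0.04). The one that fell was ITPR3, the type 3 receptor, at 42.7 and 44.2 TPM without TRIB1 and 28.4 and 29.5 TPM with it (log2 change -0.57, limma adjusted p = 0.0303, up to 0.118 with a library left out and over 0.05 without 6 of the 8). In DU145 the levels of the 2 receptors lay closer together with TRIB1 than without, ITPR3 being the higher in all 4 libraries. ITPR2 was low throughout, at 1.7 to 4.14 TPM, and passed in neither line. In PC3 ITPR3 fell together with ITPR1, from a mean of 52.9 ± 2.84 TPM to 31.9 ± 2.62 TPM (SD, n = 2 each), a log2 change of -0.71 (limma adjusted p = 0.00498), and its changes in the 2 lines did not differ past the test (0.15, limma adjusted p = 0.495).

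The PC3 list held 7 genes that fell and 2 that rose (median -0.07 against -0.01). ORAI2, a pore subunit of the channel that refills the store, fell from 53.1 and 72.9 TPM to 22.1 and 22 TPM (log2 change -1.46, limma adjusted p = 0.00346). PLCG1, a phospholipase C that makes the ligand of ITPR1, fell from 80.5 and 74.8 TPM to 44 and 42.7 TPM (log2 change -0.83, limma adjusted p = 0.00422). ORAI3 and the inositol trisphosphate kinase gene ITPKA, named after their values were seen, fell by 1.28 and 1.57 on the log2 scale (limma adjusted p = 0.00662 and 0.00994, the latter up to 0.0689 with a library left out). The kinase gene ITPKC and the calcium pump gene ATP2A2 rose (0.85 and 0.27, limma adjusted p = 0.0319 and 0.0209, up to 0.156 and 0.083 with a library left out). In PC3 the counts that passed in these lists depended on single libraries. With the first or the second library of PC3 TRIB1 left out they went from 7 to 2 and 2 for the nuclear envelope, from 7 to 2 and 2 for folate, from 9 to 2 and 5 for the thin filament, from 3 to 1 and 0 for the zinc finger genes and from 9 to 4 and 5 for the calcium store. Without either DU145 control they were 4 for the nuclear envelope, 4 for folate and 1 for the zinc finger genes, and without the second PC3 control 1 for the last.

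**Figure D3:**
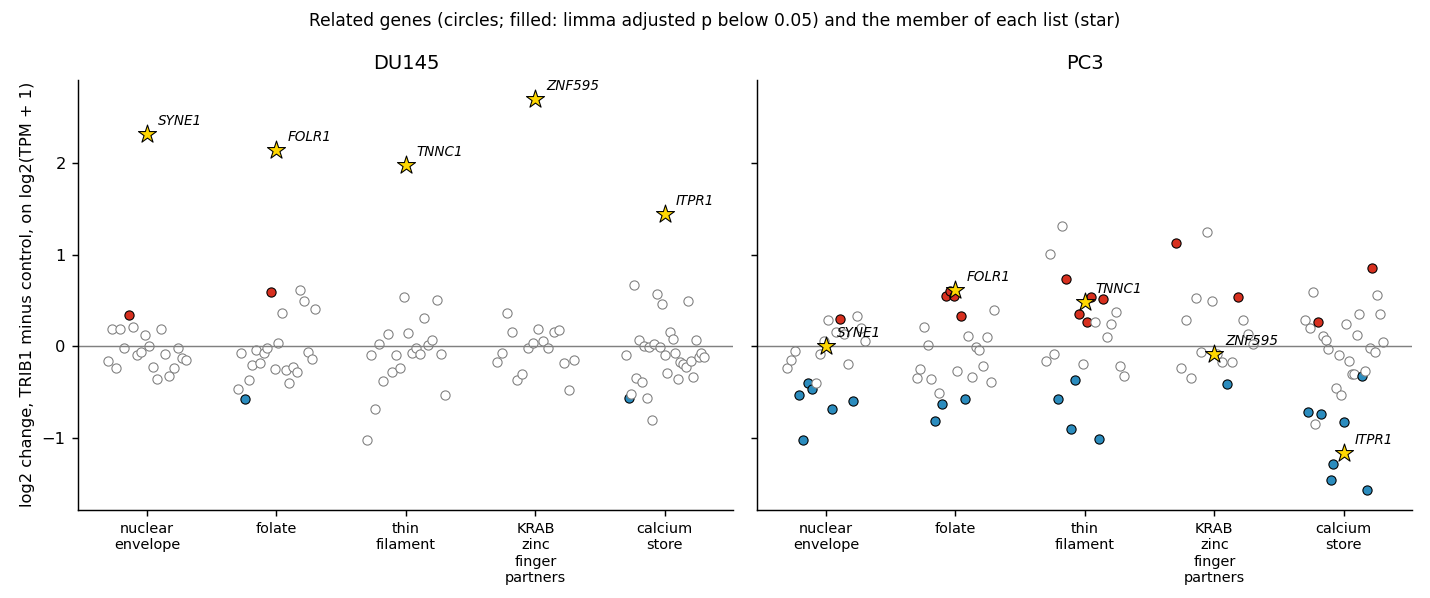
The log2 change with TRIB1 on log2(TPM + 1) of every tested gene of the 5 lists in DU145 (left) and PC3 (right). Circles are genes, filled red or blue at a limma adjusted p below 0.05 (higher or lower), and stars are the 5 genes chosen on DU145. In DU145 the stars lie at 1.44 to 2.70 and every circle lies below them, a gap that the choice of the 5 genes favours. In PC3 the ITPR1 star lies at -1.16 among the calcium store genes that fell.

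The genes around each of the 5 in the table's own intervals were read for overlap, since without a stated strand setting reads of overlapping genes cannot be told apart. SYNE1 overlaps SYNE1-AS1 on the other strand, which was too low to be tested, at 0.199 and 0.22 TPM in the DU145 control libraries and 0.608 and 0.793 TPM with TRIB1. Its nearest tested neighbours lay 307505 and 333130 bases away: FBXO5 did not pass in either line (log2 changes -0.17 and -0.09), and RP3-443C4.2, an antisense RNA, was listed at 0 in 6 libraries and at 6.98 and 8.46 TPM in the PC3 TRIB1 libraries. FOLR1 overlaps the antisense RNA RP11-807H22.7, at 0.567 to 1.32 TPM in DU145, and its flanking genes ANAPC15 and INPPL1 did not pass in DU145 (0.44 and -0.32, limma adjusted p = 0.247 and 0.465). TNNC1 lies 1048 bases from NISCH and 6075 bases from SEMA3G. NISCH was at 82.9 and 83.2 TPM in the DU145 control libraries and 89.6 and 85.8 TPM with TRIB1 (log2 change 0.08, limma adjusted p = 0.641), and SEMA3G did not pass either (0.65, limma adjusted p = 0.506).

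The ZNF595 interval holds a short RNA on the same strand, Z95704.1, listed at 0 and 2.11 TPM in the DU145 control libraries and 11 and 28.5 TPM with TRIB1, higher in both TRIB1 libraries as ZNF595 was, but not past the test (log2 change 3.41, limma adjusted p = 0.0831). In PC3 it was at 0 to 1.8 TPM. ITPR1 has ITPR1-AS1 185 bases before it on the other strand, with log2 changes of 0.21 in DU145 and -0.89 in PC3 that did not pass (limma adjusted p = 0.726 and 0.0627). AC018816.3, which overlaps the far end of ITPR1, was under 1 TPM in DU145 and at 12.4 and 10.3 TPM in the PC3 control libraries and 8.29 and 7.5 TPM with TRIB1. The next gene, BHLHE40, a transcription factor of the clock and the hypoxia response, fell in DU145 where ITPR1 stood higher, from 27.8 and 29.5 TPM to 12.3 and 11 TPM (log2 change -1.23, limma adjusted p = 0.00424). In PC3 it fell as well (-0.38, limma adjusted p = 0.025, over 0.05 without 3 libraries).

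**Figure D4:**
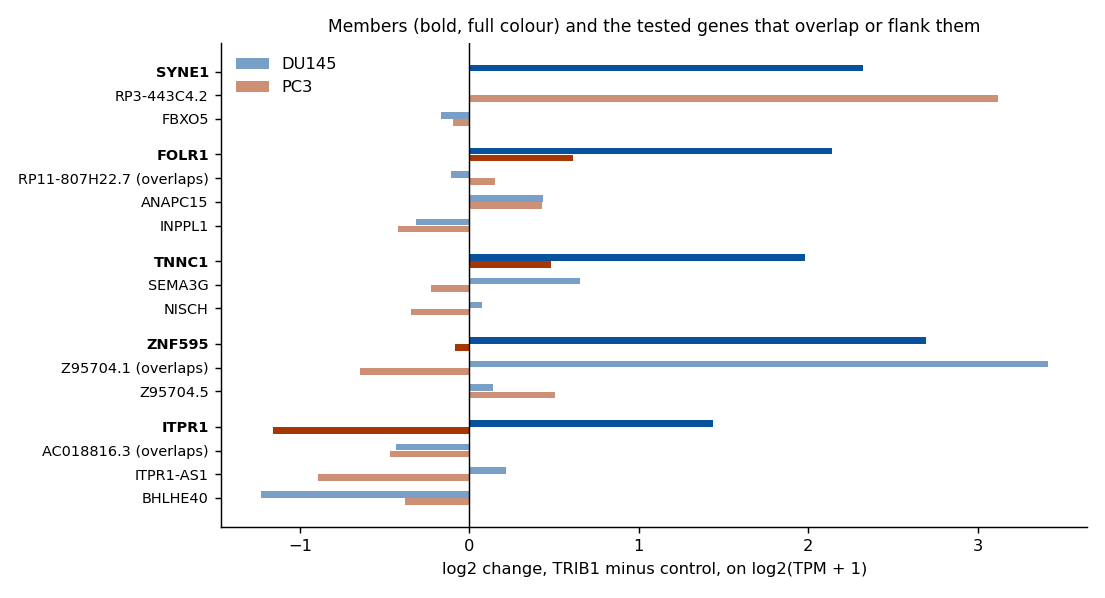
Bars give the log2 change with TRIB1 on log2(TPM + 1) in DU145 (blue) and PC3 (brown) for the 5 genes (bold) and for the tested genes that overlap them or flank them. Beside the 5 genes, the short RNA Z95704.1 inside ZNF595 has the longest DU145 bar at 3.41, and BHLHE40 beside ITPR1 points the other way at -1.23.

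Genes with the most similar profile were found by Pearson's r of log2(TPM + 1) over the 8 libraries, among 5652 genes listed as protein-coding. The libraries share 2 lines and the TRIB1 vector, so r is a description. The 5 genes were chosen for a rise in DU145, which favours a high r among them, also for FOLR1 with SYNE1. MATN2, an extracellular matrix protein gene, came first for SYNE1 (r = 0.99), followed by FOLR1 and the endosomal sorting gene STAM (both 0.98). MATN2 was at 36.5 and 40.4 TPM in the DU145 control libraries, 86.5 and 91.9 TPM with TRIB1, and 26.5 to 32.3 TPM in PC3. FOLR1 was matched by MEGF11, by STAMBPL1, a deubiquitinase gene, and by TM4SF1, a tetraspanin-like membrane protein gene (each 0.99). TNNC1 was matched by PPP1R3C, a glycogen-targeting phosphatase subunit gene, MEGF9 and DGCR6 (each at least 0.998). PPP1R3C was at 4.74 and 4.75 TPM in the DU145 control libraries, 9.54 and 9.83 TPM with TRIB1, and under 1 TPM in PC3.

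For ZNF595 the likeness was weaker, with SEMA3E, a guidance cue gene (0.90), FERMT3, an integrin activator gene (0.88), and HBEGF, an EGF receptor ligand gene (0.86). HBEGF was at 18.6 and 18.2 TPM in the DU145 control libraries and 45.7 and 43.9 TPM with TRIB1, and at 29.3 to 35 TPM in PC3. The 3 genes most like ITPR1 were KAZALD1, the spectrin gene SPTB, and FKBP10, a collagen-folding enzyme gene (0.97, 0.96 and 0.96). SPTB shared the order of ITPR1 within each line, with 7.64 and 6.66 TPM in the DU145 control libraries, 12.7 and 11.8 TPM with TRIB1, 14.1 and 15.3 TPM in the PC3 control libraries and 7.67 and 7.13 TPM with TRIB1. Among the 5 genes themselves a high r was favoured by their choice on DU145, and nothing is read from it. The r was 0.98 for SYNE1 with FOLR1, 0.93 for FOLR1 with TNNC1 and 0.91 for SYNE1 with TNNC1. It was 0.51 to 0.79 for ZNF595 with these 3. ITPR1 stood apart from SYNE1, FOLR1 and TNNC1 (0.24, 0.10 and -0.11) and had 0.63 with ZNF595.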

How the data were processed

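The authors deposited 1 table of TPM values with 1 column for each of 8 libraries, and each column sums to 1000000. TopHat2 2.0.14, HTSeq, DESeq, edgeR and hg38 are named in the submitters' processing notes. Not given in the sources used here are the tool that made the TPM values, the annotation, the strand setting and the build of the listed intervals. The intervals are printed as listed and differ from the GRCh38 positions of the same genes, although hg38 is named. The promoter positions are on GRCh38. TPM values carry no read totals: depth is unknown, and counting error could not be given. Whether replicates were separate cultures is not in the labels, so a p-value measures only how these libraries spread, and that spread may be technical.

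The 25982 genes that averaged 1 TPM or more in some group were tested with limma 3.58.1 (R 4.3.3) and a mean-variance trend on log2(TPM + 1), a scale that understates the change of low genes. The 8 libraries entered 1 fit with 4 group means and 4 residual degrees of freedom. P-values were adjusted by Benjamini-Hochberg over the 25982 genes. A gene that rose or fell has an adjusted p below 0.05, and a called gene also has an absolute log2 change over 1, the cutoff of the series' design. The procedure was tested on simulated data.

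The 5 genes and the lists of related genes were chosen with earlier results of these data known. Named genes are the 5, TRIB1, their paralogs, up to 2 genes per list, direction and line with the smallest p below the threshold, the nearest or overlapping genes, and the 3 protein-coding genes with the highest r that reach 5 TPM in a group and a log2 range of 1. Genes named outside this rule are marked, and some genes that the rule names are not reported here. Of 118 list genes all were matched, NEMP1 through its identifier. RefSeq promoters were matched by symbol. Alternatives were 2 other pseudocounts, 2 other filters, 2 other scalings, a protein-coding total, no trend, each line alone, a replicate block and leaving out each library. Of the other marker lists, 7 fibroblast, 8 neuronal, 3 matched endothelial and 5 leukocyte genes summed in DU145 to 65.5 to 69.4, 22.5 to 24.3, 0.528 to 0.558 and 27.7 to 33.5 TPM in the controls and to 53.6 to 56.4, 22.1 to 24.1, 0.351 to 0.383 and 8.32 to 8.68 TPM with TRIB1. In PC3 the sums were 59.9 to 71.5, 153 to 189, 3.09 to 3.56 and 18.7 to 22.4 TPM in the controls and 42.6 to 46.3, 534 to 541, 2.43 to 3.01 and 31.9 to 33.6 TPM with TRIB1. Their part in the results was not tested.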

Additional observations from a re-analysis of the deposited data

Results flagged for a closer look

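ITPR1 moved in opposite directions in the 2 lines, with both TRIB1 libraries above both controls in DU145 and below both in PC3 (log2 change -1.16 in PC3 against 1.44 in DU145). The difference was not tested, because DU145 chose the gene.

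For 12 named related or neighbouring genes the change in DU145 differed from that in PC3 by limma's test of the difference. Most of the 12 were named for a small p in 1 line, which favours such a difference. The count does not cover the whole lists, where further genes passed. The share over all genes was not counted. Subtracting the PC3 change from the DU145 change (log2) gave -3.12 for RP3-443C4.2 (limma adjusted p = 0.00502), which was listed at 0 outside the PC3 TRIB1 libraries. It was 0.74 for LMNA and 0.72 for SUN1 of the nuclear envelope. Among folate genes it was -0.78 for GGH, 0.77 for TYMS and 0.56 for MTHFD1. Among thin filament genes it was -0.61 for ACTG1, -0.60 for TPM1 and 0.61 for TNNT1. Among calcium store genes it was 0.73 for PLCG1 and -1.19 for ITPKC, and beside ITPR1 it was -0.85 for BHLHE40. The adjusted p of the 12 was between 0.00502 and 0.048. The same difference was 1.01 for SUN2, 1.31 for ORAI3 and 2.07 for ITPKA, which were named after their values were seen (limma adjusted p = 0.0377, 0.0267 and 0.0202).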

How the results depend on the processing

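Precision is limited by 2 libraries a group and unknown depth. The fall of ITPR1 in PC3 kept its direction and an adjusted p below 0.05 under all 18 alternatives (log2 change -1.25 to -1.11). The count of the 5 genes with an adjusted p below 0.05 in PC3 holds FOLR1 and TNNC1, admitted only through DU145, and nothing is read from it: it was 2, 3 with either smaller pseudocount and with the protein-coding total, 2 with the stricter filter and median-of-ratios scaling, 1 without the filter, with upper-quartile scaling, without the trend and with the PC3 libraries alone, and 1 to 1 with a library left out. SYNE1 and ZNF595 changed sign in PC3: SYNE1 went to -0.01 without the second PC3 control and ranged from -0.23 to 0.24 with a library left out, and ZNF595 went to 0.07 without the first PC3 control and ranged from -0.34 to 0.17. No value exists for FOLR1 and TNNC1 in PC3 libraries alone, where the filter removes them. None exists for ZNF595 under the protein-coding total, which leaves out its listed class. That total leaves out other genes by listed class too, so 12642 genes, 86 of them related genes, were tested under it. The related genes that passed in DU145 numbered 4, but 2 without the filter, 1 with upper-quartile scaling, 7 with the protein-coding total, 0 without the trend, 0 in DU145 alone and 0 to 7 with a library left out. In PC3 they numbered 35, but 20 in PC3 alone and 11 to 36 with a library left out. Called genes numbered 290 in DU145, but 46 in that line alone and 195 to 584 with a library left out, and 1350 in PC3, but 886 with the protein-coding total and 1158 to 1598 with a library left out. The PC3 split of 656 higher and 694 lower turned to 697 and 517 without the first PC3 TRIB1 library and 740 and 445 without the second, and was 638 and 960 without the first PC3 control. It was 755 and 641 after median-of-ratios scaling and 445 and 441 with the protein-coding total. With the replicate number as a block, called genes were 11 in DU145 and 833 in PC3, related genes passing 0 and 16, and genes of the 5 passing in PC3 1. The labels number the libraries but do not say whether the same number means a pair. Deviations of same-numbered libraries from their group means correlated at -0.04 in DU145 and -0.01 in PC3, with 2 pairs each. With 2 libraries a group the 2 pairs mirror each other. They give 1 comparison a line and cannot settle whether the libraries are paired. The cause of these shifts was not tested.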

Other observations

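CRABP1, which encodes a retinoic acid binding protein, had the same opposite directions as ITPR1 and was named after its values were seen. In DU145 it had 1.86 and 1.49 TPM without TRIB1 and 4.07 and 5.46 TPM with it, and in PC3 6.32 and 3.84 TPM and 0.673 and 0.217 TPM. It passed the test in PC3 (log2 change -2.06, limma adjusted p = 0.00804, up to 0.0543 with a library left out) and not in DU145 (1.1, limma adjusted p = 0.122). CALB1, a calcium-binding protein gene of the neuronal marker list, had 2.82 to 3.39 TPM in DU145, 138 to 173 TPM in PC3 without TRIB1 and 526 to 534 TPM in PC3 with it, and made up most of that list's sum in PC3. The macrophage marker CD68 had 26.1 and 31.7 TPM in DU145 without TRIB1 and 7.2 and 7.04 TPM with it, while PTPRC, which marks all leukocytes, stayed under 1 TPM in every library. CALB1 and CD68 were likewise named after their values were seen.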
